A study of Mus musculus with 16 samples.

Results

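Mouse chromosome 16 was described in 16 cultured tumour lines by array comparative genomic hybridisation, which measures how much DNA of a line binds each probe relative to a reference DNA. The probes were those whose position lay on chromosome 16 of the mouse build mm8, with control spots left out: 8937 of the 220668 autosomal probe positions on the array, between chr16:3151162-98237087. Renca, a kidney line, was gained along nearly the whole chromosome, and EL4, a lymphoma line, had the lowest chromosome 16 of the 16 arrays. MC38, P815, LL2, CT26 and TRAMPC1 showed changes of part of the chromosome. The broad loss of CT26 was not called under another background correction, as given below. Hepa1-6, PAN02, TRAMPC2 and ID8 had no segment past the threshold of 0.3 used here, although ID8 came below -0.2 over its longer segment.

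The lines are syngeneic models, which grow in immunocompetent mice of the strain they came from. The Balb/C lines were CT26 (colon), 4T1 (breast) and Renca (kidney), and the DBA/2 line was P815 (mast cells). The C57BI6 lines were MC38 (colorectal), LL2 (lung), Hepa1-6 (liver), PAN02 (pancreas), EL4 (blood), ID8 (ovary), the prostate lines TRAMPC1 and TRAMPC2, and the melanoma sublines B16F10 NCI, B16F10 ATCC, B16F0 ECAC and B16F0 ATCC. The labels give no treatment. Each line was 1 culture on 1 array, labelled with the red dye Cy5. The same commercial mouse genomic DNA, labelled with the green dye Cy3, was on every array, and its strain is not given in the labels. Values are log2 ratios of the line over that DNA, centred on the median of the array's autosomal probes. A ratio is therefore relative to the rest of the same genome and is not a copy number. With 1 array per line, differences between lines have no test, and precision is limited by the number of arrays. The SE given for a segment runs over its probes, and measures noise along the genome rather than the spread between cultures.

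Chromosome 16 carries several genes that matter in these models. A list of chromosome 16 genes was drawn up as background. A table of RefSeq genes (GRCm38) placed 36 of 36 on that chromosome, which checks the list and is not a result. Among the 8 genes of checkpoint and co-stimulation are Cd80 and Cd86, the ligands of CD28 and CTLA-4, Cd47, which restrains phagocytosis, and Btla, Tigit and Cd96, receptors of lymphocytes. The 9 interferon and cytokine genes include the receptor chains Ifnar1, Ifnar2, Ifngr2 and Il10rb, the signalling inhibitor Socs1 and Ciita, the regulator of MHC class II genes. The 19 genes studied in tumours include Bcl6, Trp63, Crebbp, Runx1, Erg and Ets2. No deposited file gives gene names for probes and that table is on another build, so no gene was set against a segment. The statements below are about positions. A gain or loss of DNA is known to change the dose of the genes in it, but expression was not measured on these arrays.

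Noise between neighbouring autosomal probes had an SD of 0.22 to 0.41 (median 0.34) over the arrays. On chromosome 16 the line channel was above background for 99.69% to 99.99% of probes. Each profile was cut into segments of at least 5 probes by a change point search. A segment mean at or above 0.3 was called a gain, and one at or below -0.3 a loss. This gave 90 segments, of which 16 were gained in 4 lines and 25 were lost in 11 lines. Of these, 8 gained and 20 lost segments were focal, meaning shorter than 5 Mb. With normexp background correction of the scanner signals in place of the processed signals, 4 lines had gains and 4 had losses, namely MC38, LL2, 4T1 and Renca.

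The shares called depend on the threshold. At 0.2, ID8 joined the lines with a loss, through chr16:35376203-98237087 at -0.24 ± 0.0056, and 23 of its 1 Mb bins were at or below -0.3, against 24 in CT26. At the same threshold the lost share of chromosome 16 probes was 91.9% in EL4, 35.7% in MC38, 34.3% in CT26 and 19.99% in 4T1, and the gained share was 41.2% in P815 and 100% in TRAMPC1. At 0.5 the lost share was 13.2% in EL4, 0.0672% in CT26, and 0% in MC38 and LL2, while the gained share was 70.8% in Renca, 15.8% in P815 and 0% in TRAMPC1. The gain of MC38 covered the same share at all 3 thresholds.

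The median log2 ratio of the whole chromosome ran from 0.52 in Renca to -0.34 in EL4. Between these, the medians were 0.24 in TRAMPC1, 0.11 in P815 and 0.030 in TRAMPC2. The 4 B16 arrays lay close to 0, at 0.0070 in B16F10 NCI, -0.032 in B16F10 ATCC, 0.0064 in B16F0 ECAC and -0.050 in B16F0 ATCC. Hepa1-6 and PAN02 were close to 0 as well, at -0.014 and -0.025. The remaining medians were negative, at -0.11 in 4T1, -0.12 in LL2, -0.15 in MC38, -0.22 in ID8 and -0.23 in CT26. Chromosome 16 had the highest median of the 19 autosomes in Renca and the lowest of the 19 in EL4. Counted from the highest, it ranked 5 in TRAMPC1, 4 in P815 and 17 in CT26.

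**Figure D1:**
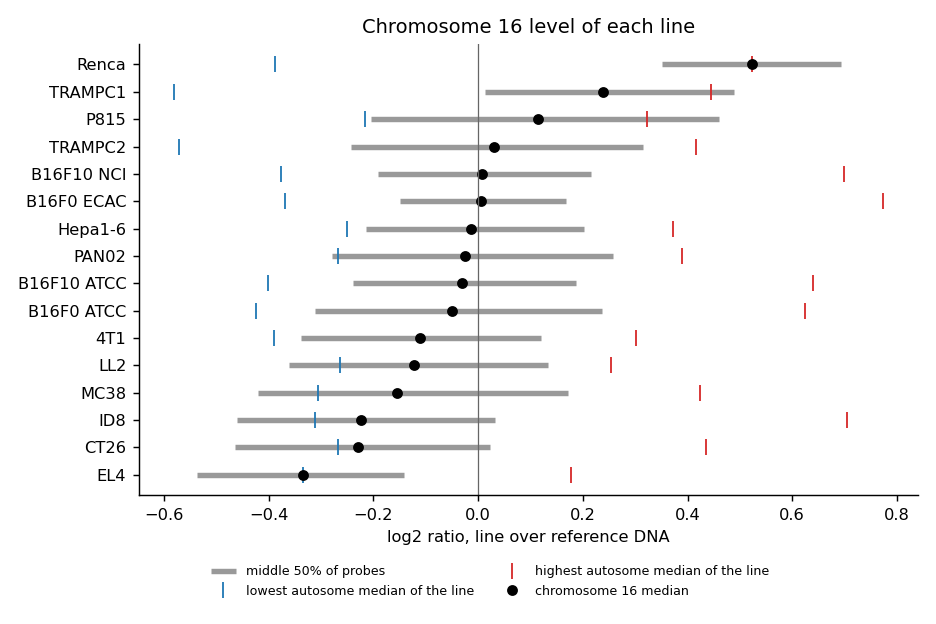
Chromosome 16 level of each line, as the log2 ratio of the line over the reference DNA; points are medians over probes, grey bars span the middle 50% of probes, and ticks mark the lowest and highest autosome median of the same line. Renca lies at 0.52, on the highest autosome median of the line, and EL4 at -0.34, on the lowest.

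The gain of Renca covered 98.7% of the chromosome 16 probes, against 8.61% of all autosomal probes of that line. It was not 1 level from end to end, as 15 segments were found, 12 of them gained. The first of them, chr16:3151162-5642284, had a mean of 0.67 ± 0.016 (SE over 294 probes). The longest, chr16:8183511-36162759, lay at 0.58 ± 0.0046. Further along, chr16:57699806-84645383 lay lower, at 0.38 ± 0.0066, and chr16:84654424-98237087 at 0.53 ± 0.0063. All 96 bins of 1 Mb were positive in Renca, from 0.11 to 0.71, and 86 of them were at or above 0.3.

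The gain of Renca was broken near the start of the chromosome. A stretch of 778 kb, chr16:5660091-6438260, lay at only 0.13 ± 0.028. Next to it, 20 probes of chr16:6442998-6559317 had a mean of -0.84 ± 0.090, and beyond these chr16:6567937-8154688 was at 0.39 ± 0.019. In the window of those 20 probes the other 15 arrays ran from -0.33 in 4T1 to 0.35 in TRAMPC1. CT26, at -0.25, was next to 4T1. The value of Renca lay below this range, but the window was picked by its call in Renca, so this is no further support. In the strain comparison given below, 20 of the 232 probes of chr16:5554792-7591729 were lower in Balb/C. Renca is 1 of the 3 Balb/C lines compared there, so those calls draw in part on the same values. The second lost segment of Renca is shared by the other Balb/C lines and is described with them. The 2 losses covered 0.291% of the chromosome 16 probes, against 30.2% of the autosomal probes of Renca.

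A short gained segment of Renca, chr16:44751270-44787399, had 6 probes with a mean of 1.70 ± 0.11. The same 6 probes were high on every array. They had their lowest mean in LL2 (0.84) and their highest in P815 (1.82), with a median of 1.22 over the 15 arrays other than Renca. The value of Renca is therefore within the range of the other arrays, and the line signal exceeded the reference signal there on all 16 arrays.

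**Figure D2:**
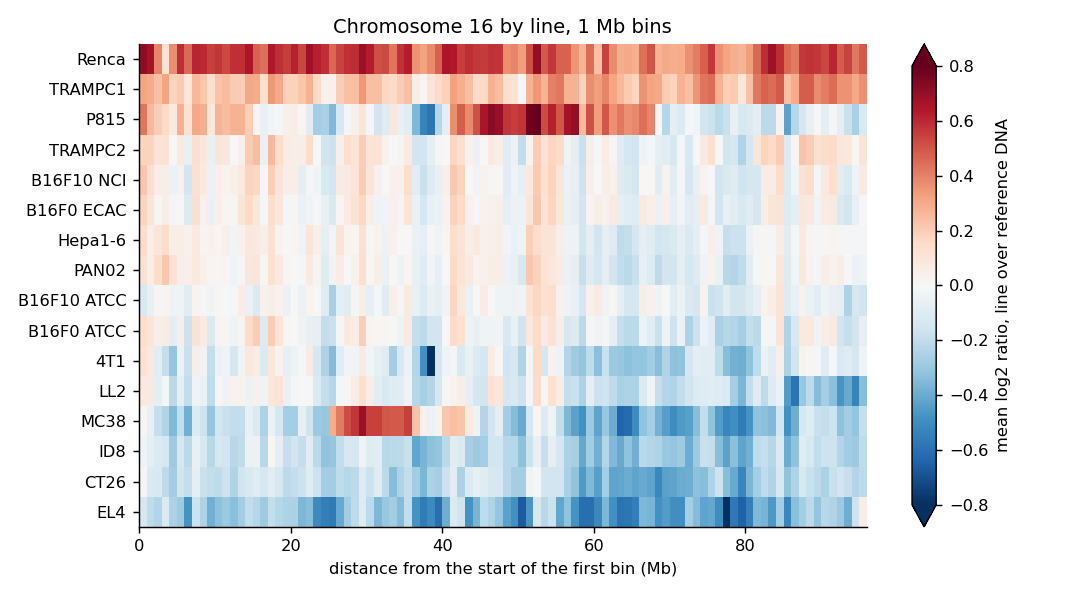
Mean log2 ratio of 1 Mb bins of chromosome 16 (colour, line over reference DNA, limited to 0.8 in either direction) against the distance from the start of the first bin in Mb, with lines ordered by their chromosome 16 median. Renca is red along the whole chromosome, MC38 and P815 have red blocks with sharp edges, and EL4 is blue over most bins.

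TRAMPC1 and TRAMPC2, a pair of prostate lines treated here as 1 family, differed along the whole chromosome, and more in its second part. Beyond 57 Mb, TRAMPC1 had a mean of 0.34 ± 0.0070 and TRAMPC2 a mean of 0.032 ± 0.0078 (SE over 3444 probes), a difference of 0.31 ± 0.0028. Up to 57 Mb the means were 0.22 ± 0.0051 in TRAMPC1 and 0.068 ± 0.0059 in TRAMPC2 (5490 probes), a difference of 0.15 ± 0.0024. TRAMPC1 was thus above TRAMPC2 on both sides, and the step between the sides was 0.15. The 42 bins beyond 57 Mb had differences of 0.23 to 0.38, and the 54 bins up to it had differences of 0.046 to 0.25. The cut at 57 Mb was chosen with earlier results of these data known, so the small overlap of the bins is no further support. The contrast compares 2 arrays and not replicated cultures.

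Segmenting the probe by probe difference, TRAMPC1 minus TRAMPC2, placed the main step between probes at 57437743 and 57443401. The difference had a noise SD of 0.16 and went through 3 levels. It was 0.15 up to that step, 0.33 over chr16:57443401-89324380 and 0.27 over chr16:89330949-98237087. The first step was 0.17 and the second -0.055. Within the second part the difference was 0.32 over 57 to 70 Mb, 0.33 over 70 to 84 Mb and 0.29 beyond 84 Mb.

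The profile of TRAMPC1 alone put its boundary elsewhere. In it, chr16:3151162-83552049 lay at 0.24 ± 0.0046 and chr16:83589683-98237087 at 0.39 ± 0.0096, and only the second was called a gain (17.1% of the chromosome 16 probes, against 13% of its autosomal probes). The gained share was 40.7% under normexp, 41% without limiting of single probes and 37.9% with the median profile of the families taken off. TRAMPC2 had 3 segments, at 0.072, -0.056 and 0.11, none past a threshold. After the median profile of the families was taken off, an alternative chosen after seeing the data, the boundary of TRAMPC1 lay between 57416164 and 57422589, with 0.17 before it and 0.39 after it. TRAMPC2 was then a single segment at 0.040.

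**Figure D3:**
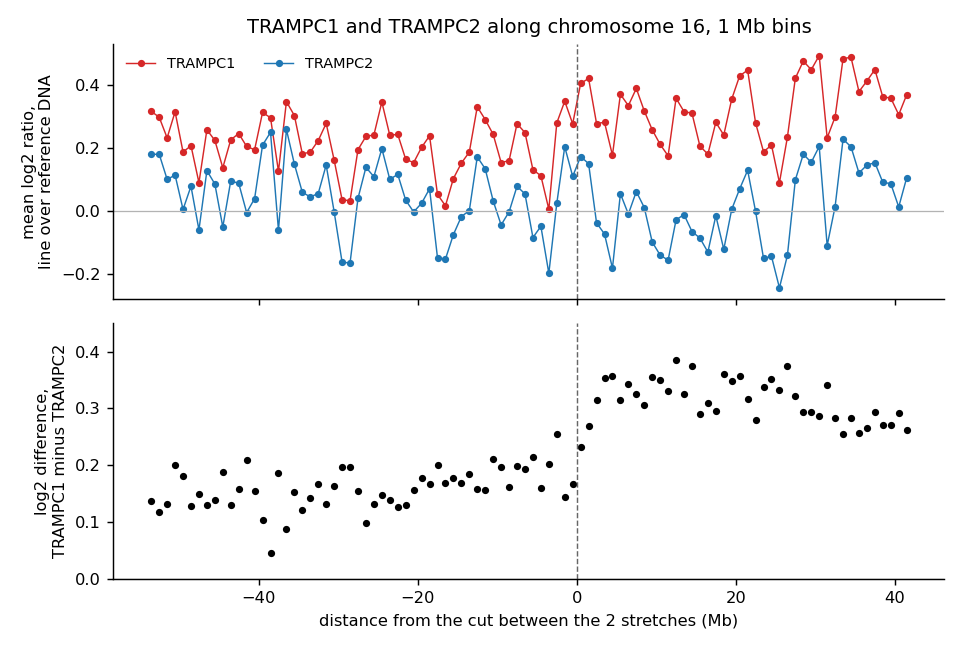
TRAMPC1 and TRAMPC2 in 1 Mb bins of chromosome 16 (upper panel, mean log2 ratio over the reference DNA) and the difference TRAMPC1 minus TRAMPC2 (lower panel, log2), against the distance in Mb from the cut at 57 Mb (dashed line). The differences lie between 0.046 and 0.25 before the cut and between 0.23 and 0.38 after it.

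MC38 had a gained block with sharp edges. Its 1343 probes, chr16:28063066-39270025, had a mean of 0.52 ± 0.0090, with -0.17 on its left and 0.13 on its right. The segment on its right, chr16:39300399-47654052, was itself above its right neighbour, which lay at -0.16. The profile thus came down in 2 steps, of -0.39 and -0.29. The gain covered 15.03% of the chromosome 16 probes of MC38, against 19.2% of its autosomal probes. In the same block Renca had 0.56, TRAMPC1 0.21 and EL4 -0.29, and the median of the 15 other arrays was 0.019. MC38 also had a loss of 30.5 Mb, chr16:59170069-89700445, at -0.40 ± 0.0088, 24.4% of the chromosome 16 probes against 12.8% of its autosomal probes.

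P815, the mast cell line, was gained over the middle of the chromosome. The segment chr16:44472353-60556392 had a mean of 0.62 ± 0.013 and chr16:60568975-71374810 a mean of 0.39 ± 0.018. Together they covered 23.0% of the chromosome 16 probes, against 12% of the autosomal probes of P815. Under normexp the gained part was 1.76% of the chromosome 16 probes. The step at the left edge was 0.70 and that at the right edge was -0.52. The first 14.4 Mb of P815 lay at 0.25 ± 0.011, under the threshold, and ended between 17534256 and 17540323. In the first gained segment Renca had 0.52 and TRAMPC1 0.27, and the median of the 15 other arrays was 0.045. The left edges of the P815 and MC38 gains were on different positions, and their gained segments did not overlap.

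LL2, the lung line, had a loss at the far end of the chromosome. The segment chr16:88467749-98237087 lay at -0.39 ± 0.013 (1137 probes), with -0.17 ± 0.0089 on its left. It covered 12.7% of the chromosome 16 probes of LL2, against 5.7% of its autosomal probes. In that segment EL4 had -0.28, MC38 -0.25 and ID8 -0.22, none past the threshold, and the median of the 15 other arrays was -0.059. TRAMPC1 lay at 0.38 there, and Renca at 0.52.

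EL4, the lymphoma line, had 10 lost segments, the largest number of the 16 arrays. They covered 46.5% of its chromosome 16 probes, against 11.2% of its autosomal probes. The long ones were chr16:62244344-80603515 at -0.45 ± 0.013 and chr16:84467288-97297288 at -0.33 ± 0.0088. Between the lost segments the level stayed negative, at -0.25 ± 0.0060 over the first 22.8 Mb, close to the threshold. The last 932 kb, chr16:97305540-98237087, stood apart at 0.011 ± 0.022, a step of 0.34. Of the 96 bins, 57 were at or below -0.3 in EL4. No segment of EL4 passed the threshold under normexp, where its chromosome 16 median was -0.21. With the penalty doubled, 29.6% of its probes were called lost.

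EL4 also had 3 deep focal losses. The segment chr16:46706850-47086767 lay at -1.09 ± 0.062 (15 probes), chr16:62130031-62215416 at -2.08 ± 0.12 (5 probes), and chr16:80649891-80797384 at -1.95 ± 0.10 (13 probes). In the first, the next lowest array was ID8 at -0.55. In the second, ID8 was again next, at -0.45, and in the third MC38, at -0.45. Each of these 3 windows was lower in EL4 than in any other array. They were picked by their calls in EL4, so this rank is no further support. All probes of the 3 windows were well above background in the line channel. The normexp means of the 3 were -0.52, -0.67 and -0.69.

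CT26, the colon line of Balb/C, had a loss over chr16:60186930-84667147, at -0.38 ± 0.0097 (1584 probes). With a focal loss described below, its losses covered 17.8% of the chromosome 16 probes, against 4.11% of its autosomal probes. In that segment EL4 had -0.49, MC38 -0.42 and ID8 -0.31, while the median of the 15 other arrays was -0.10. No segment of CT26 was lost under normexp, and its chromosome 16 median was -0.098.

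The losses of CT26 and MC38 lay where most arrays were lower than in the rest of the chromosome. Over chr16:59170069-83273491, the middle segment of Hepa1-6 and PAN02, 14 of 16 arrays had a lower mean than over the rest of the chromosome. The B16 arrays are each counted among the 14. The difference ran from -0.39 in MC38 and -0.20 in CT26 to -0.049 in B16F10 ATCC. In MC38 the rest of the chromosome includes its gained block, which enters the difference. The 2 exceptions were P815, at 0.082, and TRAMPC1, at 0.014. This interval holds 68.2 probes per Mb, against 103 per Mb in the rest of the chromosome. With the median profile of the families taken off, CT26 had -0.23 and MC38 -0.28 over the segments that held the interval, neither past the threshold. The percentage lost was then 0.0672% in CT26 and 0% in MC38. The losses of LL2, at -0.40, and the gains of MC38, P815 and Renca remained past the threshold.

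The same alternative bears on the number of segments. Hepa1-6, PAN02, TRAMPC2 and ID8 became a single segment each, at -0.0026, -0.0062, 0.040 and -0.21. EL4 had -0.33 over chr16:3151162-46689279 and lay between -0.33 and -0.37 in its other long segments, so that 98.7% of its probes were called lost, with the same 3 focal losses and the same end segment at 0.063. In Renca the levels of the long segments then ran from 0.46 to 0.54.

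Over all lines, 74 boundaries between segments were found, of which 54 had a step of at least 0.2. The gap between the probes on either side of these had a median of 9.02 kb, so the positions are limited by probe spacing. EL4 held 15 of the 54, Renca 11, 4T1 7, P815 6 and MC38 4. Hepa1-6, PAN02, TRAMPC1, TRAMPC2 and ID8 had none. Boundaries of different families within 0.5 Mb of each other formed 32 pairs, among them those of the 4T1 and P815 losses and of the window shared by the Balb/C lines. This is not a count of shared breakpoints. It includes left edges paired with right edges, and the B16 arrays are each counted. The MC38 and 4T1 pair lies at the left end of the middle segment of Hepa1-6 and PAN02. The number expected for boundaries placed at random was not computed.

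4T1, the breast line, had a deep focal loss with a core inside a shallower loss. The outer parts, chr16:40871817-41231891 and chr16:41511144-41567977, lay at -1.94 ± 0.11 (32 probes) and -1.94 ± 0.10 (10 probes). Between them, 18 probes of chr16:41239801-41503325 had a mean of -5.10 ± 0.30. In the 4T1 channel 13 of them were not well above background. With their signal set to at least the lowest signal above background on that array, the core was at least 14.7-fold lower in 4T1 than in the reference DNA. The losses of 4T1 on chromosome 16 covered 0.739% of its probes, against 8.94% of its autosomal probes. Under normexp core and outer parts were not separated, and formed 1 segment of 60 probes at -1.44.

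P815 had a focal loss over the same place. Its 80 probes, chr16:40644863-41588913, had a mean of -1.19 ± 0.049, and the loss of 4T1 lay entirely inside it and took up 73.7% of its length. In the core window of 4T1, P815 had -1.20, EL4 -0.56 and Renca 0.33, with a median of -0.13 over the 15 other arrays. The right ends of the losses of P815 and 4T1 were 20.8 kb apart and the left ends 225 kb apart. The loss of P815 covered 0.895% of the chromosome 16 probes, against 4.28% of its autosomal probes. Its mean under normexp was -0.22, past no threshold.

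**Figure D4:**
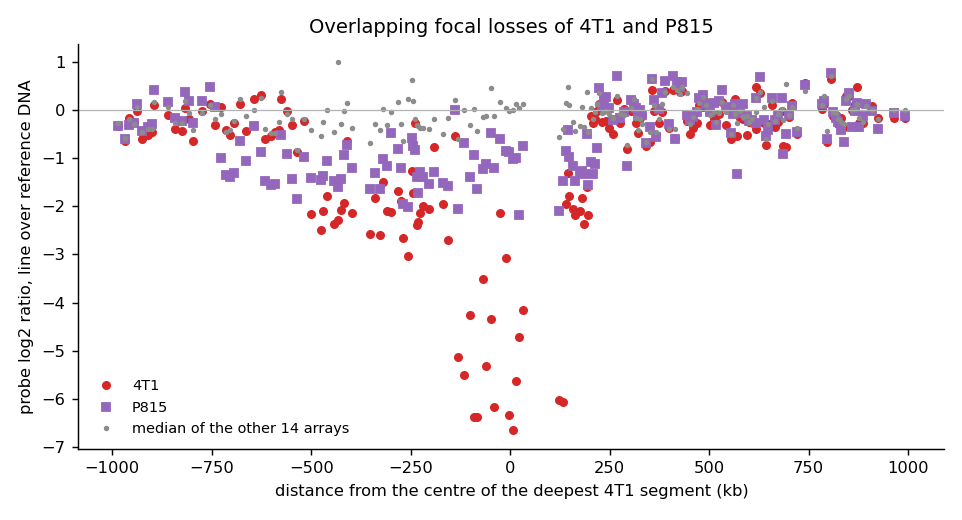
Log2 ratio over the reference DNA of each probe within 1 Mb of the centre of the deepest 4T1 segment, against the distance from that centre in kb, for 4T1, P815 and the median of the other 14 arrays. The 4T1 probes form an outer level near -1.94 and a core near -5.10, the P815 probes lie near -1.19 over a wider stretch, and the median of the other arrays lies between -0.83 and 0.98.

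The Balb/C lines shared a focal loss of 37.8 kb. Over the 6 probes of chr16:36196602-36234434 the means were -2.95 in CT26, -3.05 in 4T1 and -2.93 in Renca. In the 8 C57BI6 families, where the B16 and TRAMPC arrays were each averaged to 1 value, the means ran from 0.31 in EL4 to 1.12 in MC38, and P815 of DBA/2 had 0.67. The groups did not overlap, but the window was picked because it was called lost in the 3 Balb/C lines. The separation is therefore no further support. The segment edges were the same in the 3 lines, although Renca was gained on both sides of it. Normexp gave -0.50 in CT26, -0.76 in 4T1 and -0.94 in Renca, and a segment was found there only in Renca, so the call was lost in CT26 and 4T1.

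The strain comparison was tested with limma across all autosomal probes, with lines and families as the replicates. On chromosome 16, 100 of 8917 probes (1.12%) differed between Balb/C lines and C57BI6 families at an adjusted p under 0.05, against 2.34% of all autosomal probes. Of the 100, 82 were lower and 18 higher in Balb/C, against backgrounds of 1.98% and 0.36% of autosomal probes. The share on chromosome 16 was thus below that of the autosomes as a whole. Of the 82, 72 were single probes, and of the 18, 16 were. The lower probes were not spread evenly, as 20 of the 82 lay among the 232 probes of chr16:5554792-7591729, a stretch chosen after the values were seen. Of these 20, 8 lay in the part of Renca at 0.13 and 2 in its 20-probe loss. Renca is among the lines compared, and the stretch was not counted without it. In the part where Renca lay at 0.13, CT26 had -0.16, 4T1 -0.20 and MC38 -0.28, and TRAMPC1 was the highest array at 0.24. All 3 Balb/C lines were scanned in the same batch as B16F10 NCI, Hepa1-6 and ID8. With the batch as a block the count was 51 (0.572%, against 1.08% of autosomal probes), and within that batch it was 64 (0.717% against 1.44%). Normexp gave 21 (0.236% against 0.586%), and leaving out CT26 gave 65 (0.729% against 1.76%). Without Renca it was 122 (1.37% against 1.71%), with 113 lower and 9 higher in Balb/C. Hepa1-6 and PAN02 had the same segment edges on chromosome 16, and may not be independent. The left of these edges was also found in MC38, 4T1, B16F10 NCI and TRAMPC2, and whether Hepa1-6 and PAN02 are related was not tested. With Hepa1-6 and PAN02 taken as 1 family the count was 92 (1.03%, against 2.19% of autosomal probes).

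Runs of at least 2 neighbouring probes were 3 lower and 1 higher in Balb/C. The longest was the shared loss, at -2.98 ± 0.064 in Balb/C (SD, n = 3) against 0.61 ± 0.25 in C57BI6 (SD, n = 8), with a largest limma adjusted p of 2.4e-07 over its probes. Because 7 of the 18 Balb/C values were not well above background, the fold is a bound, at least 8.79-fold lower in Balb/C. At chr16:93513221-93524956, 2 probes had 0.12 ± 0.055 in Balb/C and 2.77 ± 0.32 in C57BI6 (largest limma adjusted p 0.00096). With dim signals of both channels raised to the lowest signal above background, the value was 6.14-fold lower in Balb/C. This is not a bound, as raising a dim reference signal can also enlarge the difference. In that pair 3 of the 6 Balb/C values of the line channel and 11 values of the reference channel were not well above background, so both channels were near the floor, and P815 lay at 0.31, on the side of Balb/C.

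The other 2 runs were smaller. At chr16:6744003-6748755 the means were 0.39 ± 0.24 in Balb/C and 1.51 ± 0.24 in C57BI6 (largest limma adjusted p 0.014), with P815 at 0.68. At chr16:59297351-59304068 the direction was the opposite, with 0.057 ± 0.37 in Balb/C and -1.48 ± 0.27 in C57BI6 (largest limma adjusted p 0.00026), and P815 at 0.64. In 3 of the 4 runs, then, P815 lay nearer to Balb/C, and in the shared loss it lay with C57BI6. Short differences of this kind between strains cannot be told apart here as changes of copy number or as sequence differences under a probe.

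The level of the whole chromosome overlapped between the strains. The chromosome 16 medians averaged 0.061 ± 0.40 in Balb/C (SD, n = 3) and -0.095 ± 0.15 in C57BI6 (SD, n = 8), a difference of 0.16 with an exact permutation p of 0.34 (two-sided, 165 assignments, smallest possible p 0.00606). Renca was the high Balb/C line, and without Renca the difference was -0.075. Within the first scan batch it was 0.14 (exact permutation p 0.9, smallest possible 0.1). With Hepa1-6 and PAN02 taken as 1 family it was 0.17 (exact permutation p 0.34).

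The B16 arrays carried a focal loss of 51.5 kb. Over the 7 probes of chr16:84856384-84907925 the means were -1.91 in B16F10 NCI, -1.05 in B16F10 ATCC, -1.93 in B16F0 ECAC and -2.06 in B16F0 ATCC. The other 12 arrays ran from -0.51 to 0.45 in this window, and all 4 B16 arrays lay below them. The window was picked because it was called lost in B16F10 NCI, B16F0 ECAC and B16F0 ATCC, so their separation is no further support. In B16F10 ATCC no segment was called there, and its value was the highest of the 4. The probes themselves varied together in all arrays, with the same ones low in B16 and in most other lines. These losses covered 0.0783% to 0.0784% of the chromosome 16 probes in B16F10 NCI, B16F0 ECAC and B16F0 ATCC, against 20.8%, 13.7% and 13.9% of their autosomal probes. The normexp means were -0.64 in B16F10 NCI, -0.20 in B16F0 ECAC and -1.57 in B16F0 ATCC, and no segment was called. With the penalty doubled, B16F0 ATCC had no called segment either.

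B16F10 ATCC had a focal loss of its own call. Its 27 probes at chr16:96734885-96954327 lay at -0.95 ± 0.060, 0.302% of its chromosome 16 probes against 16% of its autosomal probes. B16F10 NCI had -0.46 there, B16F0 ECAC -0.50 and B16F0 ATCC -0.52, and LL2 had -0.45 and EL4 -0.41. All 4 B16 arrays were thus past -0.3 in this window, with B16F10 ATCC the lowest of the 16 arrays. The window was picked by its call in B16F10 ATCC, so that rank is no further support. Under normexp B16F10 ATCC lay at -0.25, and with the penalty doubled the segment was not called.

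**Figure D5:**
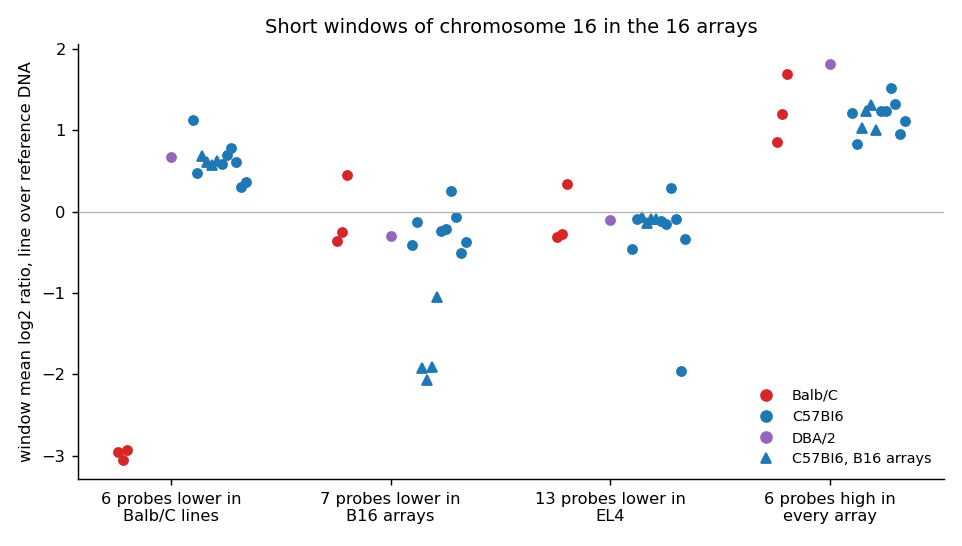
Mean log2 ratio over the reference DNA of 4 short windows of chromosome 16 in each of the 16 arrays, by strain, with B16 arrays as triangles. The first window is near -3 in the 3 Balb/C lines only, the second is lowest in the 4 B16 arrays, the third is lowest in EL4 at -1.95, and the fourth lies above 0 in all arrays.

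B16F10 and B16F0, sublines of 1 melanoma, were compared in 1 Mb bins with limma, with 2 arrays from different suppliers on each side. None of the 96 chromosome 16 bins passed an adjusted p of 0.05, and the background was 0% of 2386 autosomal bins. The lowest limma adjusted p on chromosome 16 was 0.92, with 0 bins under an unadjusted p of 0.05 on chromosome 16 and 122 on all autosomes. The median difference over the chromosome 16 bins, B16F10 minus B16F0, was 0.015. The bins with the largest differences began at 18 Mb (0.025 in B16F10 and 0.14 in B16F0), at 3 Mb (0.049 and 0.16) and at 17 Mb (0.063 and 0.16). In each of them B16F10 ATCC was the low array and B16F10 NCI lay among or above the B16F0 arrays.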

How the data were processed

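Genomic DNA of 16 lines was hybridised to 2-colour arrays with probes placed on mm8. Scanner intensity values came from Agilent Feature Extraction per the submitters' processing notes (version 10.7.3.1 per the file headers). The authors deposited processed intensity values and a log10 ratio per spot, and a series table in log2 units that matched the scanner ratios. Flags for outliers and background came with the deposited files.

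The log2 ratio of processed red over green was computed, outlier-flagged spots were dropped, repeat spots averaged, and each array centred on its autosomal median. Segments came from an exact change point search over all autosomes (squared-error cost, a penalty of 6 per boundary in units of noise variance times the natural log of the autosomal probe count, probes limited to 3 noise SDs of a running median of 5). Named were called segments of at least 5 Mb, the highest and lowest shorter segment per line where its size reached 0.5, runs of at least 2 strain probes, and the 3 B16 bins of largest difference. Further segments are given where they continue a named one, and the EL4 losses at chr16:46706850-47086767 and chr16:80649891-80797384 and the Renca loss at chr16:6442998-6559317 were added after their values were seen. Strain and B16 comparisons used limma 3.58.1 (lmFit, eBayes, Benjamini-Hochberg) in R 4.3.3, on 3 Balb/C lines and 8 C57BI6 families. P815, the only DBA/2 line, was left out. P-values measure the spread between these lines. Segmentation and fits were tested on simulated data. Alternatives were another centring, normexp background correction (offset 50) on median signals since the files hold no mean signals, other penalties and thresholds, kept flags, bright reference probes, scan batch, and leaving out lines. Hepa1-6 and PAN02 were also taken as 1 family. The regions, lists and comparisons were chosen with earlier results of these data known.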

Additional observations from a re-analysis of the deposited data

Results flagged for a closer look

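A value was looked at again where 1 member of a group of 4 to 10 stood far from the rest by Dixon's test. This was run on 60 sets of values, leaving out windows called in a member of the group itself, and chance flags about 1 in 20. There were 2 flags among the 60 sets, no more than that chance rate would give. Among the 8 C57BI6 families, MC38 stood apart in the interval chr16:59170069-83273491, at -0.39 relative to the rest of its chromosome, with the other families between -0.18 and -0.061. The interval was set by uncalled segments of other families in the group. It lies inside the called loss of MC38, chr16:59170069-89700445, with the same left edge. The flag therefore draws on values already called in MC38 and is no further support. The rest of the chromosome in MC38 had a mean of -0.031 and includes its gained block at 0.52, so that gain enters the difference. Among the 4 B16 arrays, B16F0 ATCC stood apart over chr16:57699806-62078364, at -0.073, with the other B16 arrays between -0.021 and -0.016. The cause was not tested.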

How the results depend on the processing

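Chromosome 16 lay above the median in Renca, and TRAMPC1 above TRAMPC2 beyond 57 Mb, under each alternative run. Background correction by normexp moved most. Under it 4 lines had a loss in place of 11, and the Renca median was 0.69. The strain comparison called 21 probes on chromosome 16 under normexp, and 0.586% of autosomal probes. The Balb/C window was then at -0.50 in CT26, -0.76 in 4T1 and -0.94 in Renca, the 4T1 core at -1.57 and the B16F0 ECAC loss at -0.20. The causes were not tested. The strain count was 51 with scan batch as a block (49 of them among the 100) and 64 within the first batch. The shares of autosomal probes called were then 1.08% and 1.44%, below the main 2.34% as well. Leaving out 1 line or family gave 65 probes (without CT26, 1.76% of autosomal probes) to 122 (without Renca, 1.71%). The difference of strain medians was then -0.075 (without Renca, the reversed value) to 0.30. Lines with a gain numbered 3 to 5 and lines with a loss 4 to 12 over the settings, with each B16 array counted as a line. A threshold of 0.5 ended the TRAMPC1 gain and a threshold of 0.2 made all of TRAMPC1 gained. The doubled penalty dropped the losses of B16F0 ATCC and B16F10 ATCC. No paired analysis was possible because each line has 1 array and the labels give no replicate numbers. Signal near background limits how deep a loss can be measured.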

Other observations

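Taking off the median profile of the families, an alternative chosen after seeing the data, brought out 2 further segments. P815 had a loss of 48.0 kb at chr16:17700583-17748569, with a mean of -1.20 ± 0.23 (SE over 10 probes) before the profile was taken off. B16F10 ATCC lay at -1.02 ± 0.22 over the same 10 probes, and the other 14 arrays ran from -0.41 in EL4 to 0.59 in Renca. The first 1.06 Mb of probes, chr16:3151162-4207567, was at -0.34 in B16F10 ATCC after the profile was taken off. As centred, B16F10 NCI had 0.17 there, B16F10 ATCC -0.17, B16F0 ECAC 0.15 and B16F0 ATCC 0.11.

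The median profile itself ran from -0.24 in the bin at 82 Mb to 0.21 in the bin at 55 Mb.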
